A study of Mus musculus with 4 samples.

Results

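The cytosolic ribosomal protein genes of Hepa1-6, a mouse hepatocellular carcinoma line, were followed by RNA sequencing in cells carrying an shRNA against Setdb1 and in cells carrying an shRNA labelled NC. Members were taken by symbol: Rpl or Rps with a number and at most a short suffix, together with Rpsa, Rplp0, Rplp1 and Rplp2, without the rows marked -ps. The rule found 89 of 54838 genes with symbols, 53 of the large and 36 of the small subunit. GENCODE M21 annotated 83 of them as protein-coding and 6 as pseudogenes, and they lay on 19 chromosomes.

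The shSet group (Setdb1 knockdown by the labels) held 2 libraries and the shNC group (Setdb1 wild type by the labels) held 2, all of total RNA from the same line. The design text calls the cells subclones and does not say how many clones were used, and separate cultures are not mentioned in the labels. The p-values therefore cover the spread among these 4 libraries alone, and that spread may be technical. The 4 libraries held 19513567 to 19615440 expected counts, and within each group they differed by more than sampling noise. Setdb1, a histone methyltransferase known for silencing retroelements, had 10.96 and 8.59 CPM (counts scaled to the library total) in the shSet libraries, against 51.2 and 59.4 CPM in the shNC libraries, so the target was lower where the labels place the knockdown (log2 fold change -2.49 with an SE of 0.182, adjusted p = 0.00015 in edgeR). Of 10 hepatocyte markers 8 passed the filter on low counts, Alb among them at 1236 and 1056 CPM in shSet against 604 and 602 CPM in shNC. Alb was called higher (log2 fold change 0.94) and Apob and Hnf4a lower (-0.75 and -0.60), the median over the 8 was 0.01, while Ttr and Apoa1 stayed at or below 0.357 CPM in every library. Markers of other cell types summed to 42.6 and 40.6 CPM in shSet against 20.9 and 18.5 CPM in shNC over 10 genes, of which 5 passed the filter, 2 (Col1a1 and Epcam) were called higher, and Acta2 and Lrat were at 0 in all libraries. Over all genes tested, 4.2% were called higher and 1.76% lower. The part of these markers in the results was not tested.

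Ribosomal proteins are made in the cytoplasm, carried into the nucleolus and assembled with ribosomal RNA into the large subunit, which joins amino acids, and the small subunit, which reads the mRNA. Their mRNAs are among the most abundant of growing cells and typically begin with a run of pyrimidines, the TOP motif, through which mTOR signalling and Larp1 control their translation. Many of the genes also carry small nucleolar RNAs in their introns, and their mRNAs have left many processed pseudogenes in mammalian genomes.

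The starts of these genes are shown first, since promoter sequence is a feature that the symbol rule did not use. The RefSeq promoter table (GRCm38.p6) held a window for 60 of the 83 members that passed the filter on low counts. The next sequences run from 85 bases before to 15 bases after the RefSeq start, and come from the 3 members among these 60 with the lowest fitted fold change in shSet over shNC. Capitals mark CCGGAAG, a core that Ets-family factors such as Gabpa are known to bind, read on the printed strand, which Rpl22l1 lacks in this window.
Rps21, chr2:180257294-180257393, + strand: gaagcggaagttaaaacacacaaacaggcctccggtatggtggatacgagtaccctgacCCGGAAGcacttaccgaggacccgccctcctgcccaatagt
Rpl22l1, chr3:28805423-28805522, + strand: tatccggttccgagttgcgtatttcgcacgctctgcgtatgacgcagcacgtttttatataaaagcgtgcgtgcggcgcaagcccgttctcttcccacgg
Rpl26, chr11:68901481-68901580, + strand: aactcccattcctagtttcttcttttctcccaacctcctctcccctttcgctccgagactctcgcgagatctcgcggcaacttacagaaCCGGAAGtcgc

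The same windows follow for the 3 members among these 60 with the highest fitted fold change. Neither CCGGAAG nor the pyrimidine run CTCTTTC was found in them on the printed strand. CTCTTTC was also absent from the windows of Rps21, Rpl22l1 and Rpl26. Other pyrimidine runs were not searched for.
Rpl27, chr11:101442160-101442259, + strand: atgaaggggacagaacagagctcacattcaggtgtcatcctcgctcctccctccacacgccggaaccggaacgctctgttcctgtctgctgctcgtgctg
Rps2, chr17:24719978-24720077, + strand: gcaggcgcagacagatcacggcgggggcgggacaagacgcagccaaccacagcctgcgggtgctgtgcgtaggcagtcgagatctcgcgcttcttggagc
Rpl39, chrX:37085208-37085307, - strand: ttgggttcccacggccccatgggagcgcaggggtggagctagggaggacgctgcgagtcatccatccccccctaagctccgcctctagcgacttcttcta

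A further set is shown because CTCTTTC, in capitals, lay within 10 bases of the start on the printed strand, as it would in a transcript that begins with a TOP motif.
Rpl18, chr7:45717986-45718085, + strand: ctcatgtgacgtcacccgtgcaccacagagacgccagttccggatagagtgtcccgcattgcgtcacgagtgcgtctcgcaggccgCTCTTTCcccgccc
Rpl35, chr2:39005117-39005216, - strand: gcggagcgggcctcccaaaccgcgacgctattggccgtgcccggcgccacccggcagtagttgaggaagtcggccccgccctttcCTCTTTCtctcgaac
Rpl28, chr7:4792880-4792979, + strand: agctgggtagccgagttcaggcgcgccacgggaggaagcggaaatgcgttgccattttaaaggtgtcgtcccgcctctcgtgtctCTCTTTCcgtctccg

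Both motifs were searched on both strands over 250 bases before and 50 after the start, and neither motif overlaps the other in letters. CTCTTTC was in 17 of 60 member windows (28.3%), against 8.01% of 27025 windows of all genes. It lay within 10 bases of the start on the gene's own strand in 3 (5%) against 0.218%. Since pyrimidine runs of other letters were not searched for, these shares do not count all possible TOP starts. CCGGAAG was in 24 of 60 (40%), against 9.12% of all windows. The median log2 fold change, shSet over shNC, was -0.15 over the 17 members with CTCTTTC and -0.05 over the 43 without it. It was -0.12 over the 24 members with CCGGAAG and -0.06 over the 36 without. A match of letters is a description and does not show that a factor binds there, and these medians were not tested.

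Ribosomal protein RNA took up a large and similar part of every library. The 89 members held 7.75% and 7.17% of all counts in shSet 1 and shSet 2, against 7.36% and 8.33% in shNC 1 and shNC 2. Wilson 95% intervals, which cover counting error only, ran from 7.74% to 7.76% in shSet 1, 7.16% to 7.18% in shSet 2, 7.35% to 7.37% in shNC 1 and 8.31% to 8.34% in shNC 2. The groups overlapped, since shNC 1 lay between the shSet libraries and shNC 2 stood above all the others.

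Per length, the share was larger, because these mRNAs are short. In TPM, the unit that divides by effective length and scales every library to the same sum, the members made up 20.8% and 19.1% of the total in the shSet libraries, against 20.3% and 22.8% in the shNC libraries. The log2 ratio of summed CPM, shSet over shNC, was -0.07, and that of summed TPM was -0.11, beside a spread within groups of 0.105 and 0.102 (SD of the log2 sums). A 2 against 2 exact permutation test cannot go below p = 0.333, so neither ratio was tested. Without shNC 2 the ratio of summed CPM was 0.02. In bulk RNA, fewer cells of a kind and less RNA per cell cannot be told apart.

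Both subunits followed the same order over the libraries. Large subunit genes held 11.9% and 10.98% of TPM in shSet, against 11.7% and 12.6% in shNC. Small subunit genes held 8.82% and 8.10% in shSet, against 8.65% and 10.2% in shNC. In TPM the large subunit exceeded the small by 1.35-fold in both shSet libraries, against 1.35-fold in shNC 1 and 1.24-fold in shNC 2. In counts shNC 2 did not stand apart in this way. Large subunit genes held 4.5522% and 4.1825% of counts in shSet, against 4.3577% and 4.8587% in shNC. Small subunit genes held 3.1981% and 2.9891% of counts in shSet, against 3.0013% and 3.4664% in shNC. The ratio of these shares in shNC 2 was close to that in shSet 2.

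Levels differed widely between members. Among the 80 protein-coding members that passed the filter, mean TPM over the 4 libraries had a median of 2097, ran from 88.0 for Rpl7l1 to 8911 for Rps2, a 101-fold span, and lay within 2-fold of the median in 57. Of the 20, 50 and 100 genes with the highest mean TPM among all genes with symbols, 10, 29 and 57 were members. Rps2, a small subunit protein near the mRNA entry channel, stood at 9455 and 9496 TPM in shSet, against 7968 and 8726 TPM in shNC. Behind it in the small subunit came Rps27 (4676 TPM, mean of 4 libraries), Rps14 (4340 TPM), Rps18 (4223 TPM) and Rps15 (3857 TPM).

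In the large subunit the highest levels belonged to Rpl41, the shortest of the ribosomal proteins, at 7073 and 7051 TPM in shSet, against 7460 and 6190 TPM in shNC. Rplp1, which with Rplp0 and Rplp2 builds the stalk that recruits elongation factors, had 7638 and 7009 TPM in shSet, against 7093 and 5558 TPM in shNC. Rpl13a, Rpl23a and Rplp0 followed with means of 6602, 5826 and 5759 TPM. These neighbours in the order overlapped in their library values.

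**Figure D1:**
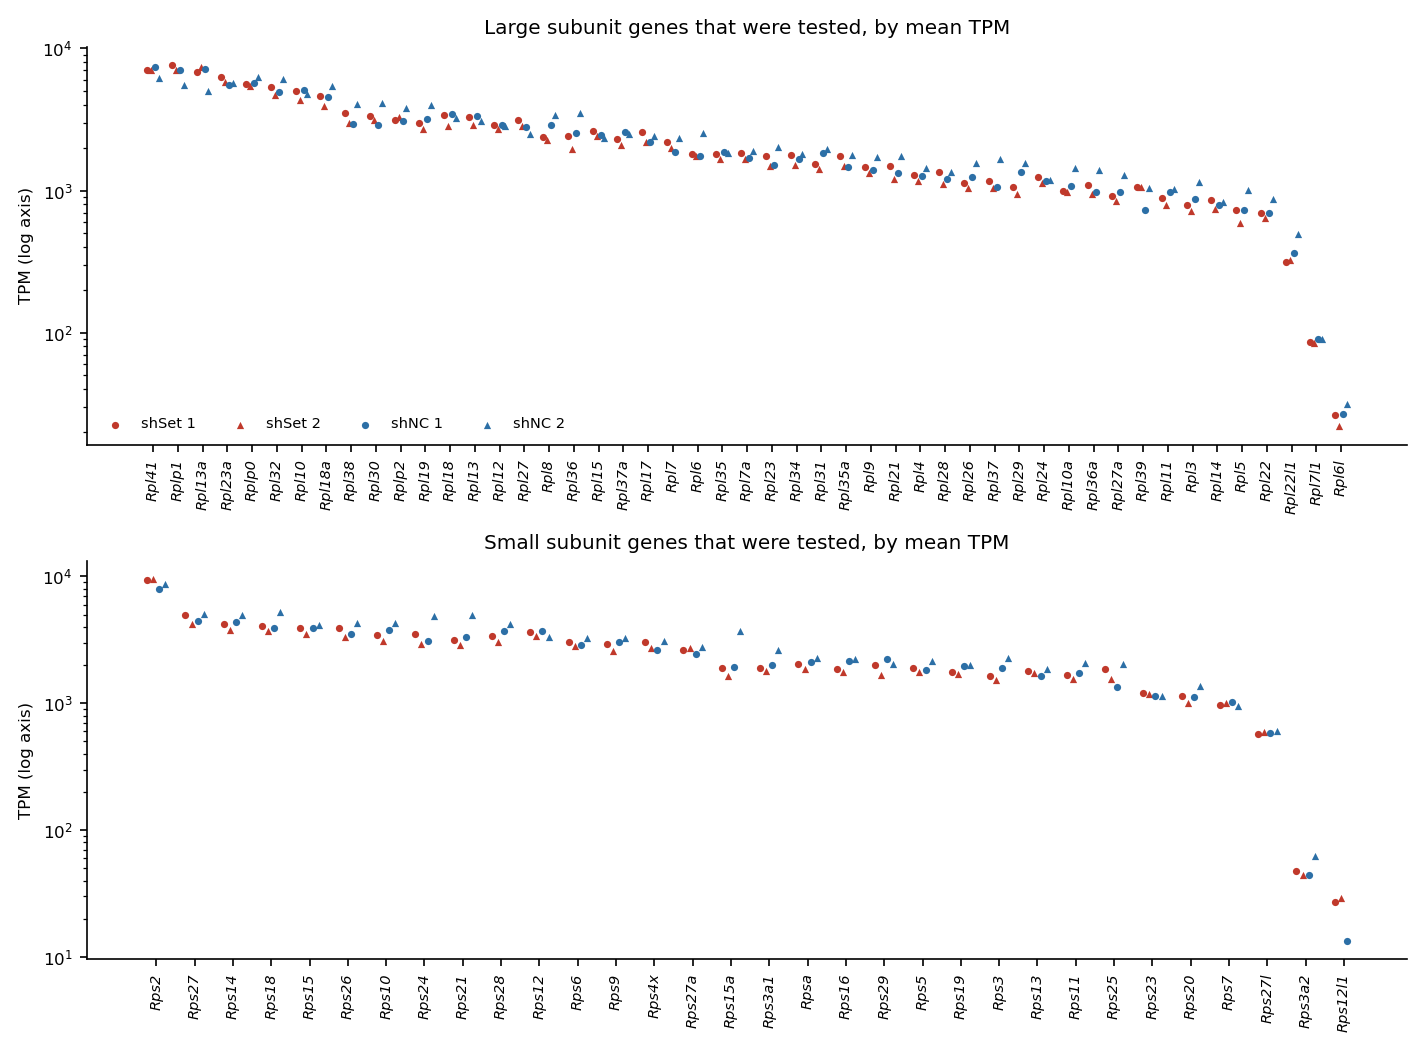
TPM (log axis) of the tested members reported here in each of the 4 libraries, the large subunit above and the small subunit below, ordered by mean TPM. Most members lie close together across libraries, with the shNC 2 triangle often on top; Rps12l1 in shNC 2 is at 0 and not drawn.

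Some members have a near relative in the set, and their levels are given against it. Rpl22l1, a paralogue of Rpl22, ran at 45.0% and 50.8% of the TPM of Rpl22 in shSet, against 52.6% and 56.8% in shNC. Rps27l, which is known as a p53 target, ran at 11.6% and 14.0% of Rps27 in shSet, against 13.1% and 11.9% in shNC. Rpl7l1, a relative of Rpl7, stood at 3.92% and 4.26% of its partner in shSet, against 4.84% and 3.84% in shNC.

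The tissue-restricted copies were at or near 0. Rpl3l, known from muscle, and Rpl10l, known from the male germ line, had no count in any library, and nor did the pseudogene-annotated Rpl32l; 0 counts allow up to 0.154 CPM in a library (3 counts). Rpl39l, also known from the male germ line, had 1 and 2 counts in shSet and 0 and 0 in shNC, which is within that limit. Rps4l had 0 and 0 counts in shSet and 0 and 1 in shNC. Rps3a3 had 10.3 and 7.60 expected counts in shSet and 8.20 and 16.01 in shNC. These 6 members did not pass the filter, and 83 members (49 large, 34 small) were tested.

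No member was called between the groups. By edgeR's quasi-likelihood test, with adjusted p-values held to 0.05, 0 of 83 tested members were higher and 0 lower in shSet, whereas 764 of 12821 genes tested were called (5.96%), 538 higher (4.2%) and 226 lower (1.76%). The smallest adjusted p of a member was 0.075. At an unadjusted p under 0.05 there were 8 lower members and 1 higher, and over all genes tested that share was 9.18% lower and 12.1% higher. DESeq2 called 1 member lower, Rpl29, and 0 higher, with 2.46% of all genes called lower and 4.53% higher.

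The fold changes leaned slightly below 0. The median log2 fold change, shSet over shNC, was -0.10 over the 83 members (-0.07 over the large and -0.10 over the small subunit), against -0.01 over all genes tested, and 55 members (66.3%) lay below 0, against 50.5% of all genes. Both shSet libraries were below both shNC libraries in CPM for 23 members (27.7%; 26.5% of all genes) and above both for 10 (12%; 25.4% of all genes), and 50 overlapped; over all genes 51.9% did not overlap. The share below was thus near the background. Apart from Rps12l1, the fitted values ran from -0.49 to 0.29, and the 95% interval lay within 2-fold in either direction for 82 of 83 members and within 1.5-fold for 58.

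**Figure D2:**
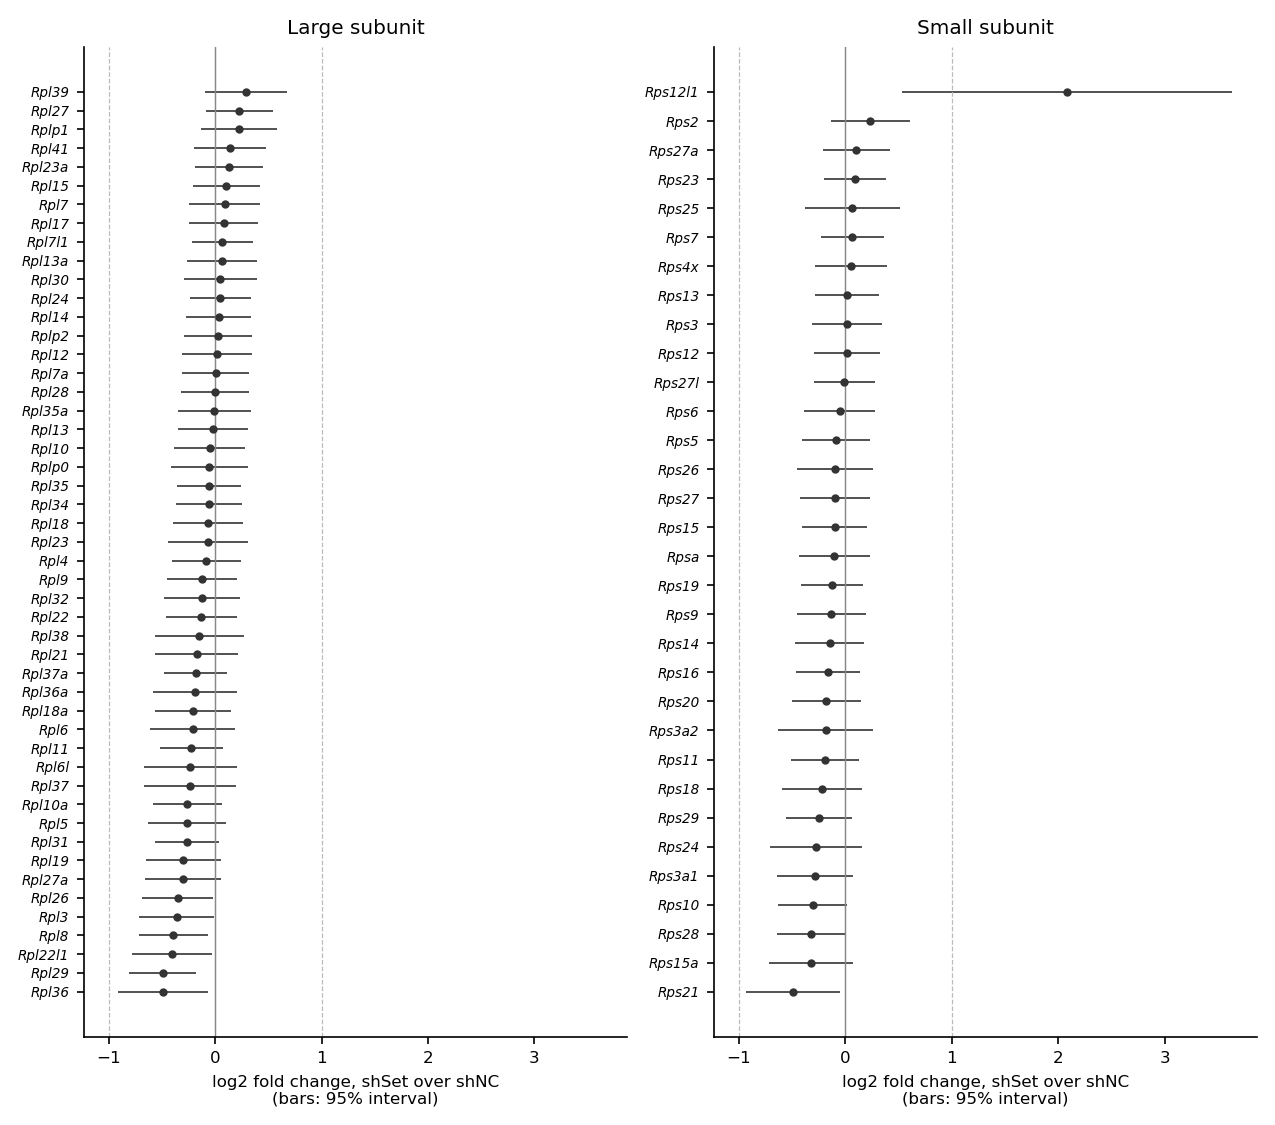
Log2 fold change, shSet over shNC, of each tested member reported here (point) with its 95% interval (bar), large subunit on the left and small subunit on the right; dashed lines mark a 2-fold change either way. The points lie between -0.49 and 0.29, except Rps12l1 at 2.08, and 0 of 83 were called.

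The lower end of the large subunit held 5 members that missed the threshold. Rpl29 (chromosome 9, 106429454 to 106431568, plus strand, GRCm38), a basic protein of the large subunit surface also known to bind heparin, had 404 and 358 CPM in shSet, against 499 and 584 CPM in shNC. Its groups did not overlap, and the log2 fold change was -0.49 with an SE of 0.140 (adjusted p = 0.075 in edgeR and 0.026 in DESeq2). Without shNC 1 it was -0.59 (adjusted p = 0.0225), and without shSet 2 it was -0.41 (adjusted p = 0.342).

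Rpl36 (chromosome 17, 56613416 to 56614243, plus strand), another large subunit protein, had 249 and 203 CPM in shSet, against 258 and 384 CPM in shNC. The gap to the nearer shNC library was small, and the log2 fold change was -0.49 (SE 0.189, adjusted p = 0.168). Without shSet 1 it was -0.64 (adjusted p = 0.0267), and without shNC 1 it was -0.74 (adjusted p = 0.00553). Without shSet 2 it was -0.35 (adjusted p = 0.441), and without shNC 2 it was -0.20 (adjusted p = 0.635).

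Rpl22l1 had 69.9 and 73.2 CPM in shSet, against 80.1 and 112 CPM in shNC (log2 fold change -0.41, SE 0.167, adjusted p = 0.198). Rpl8, which lies next to the peptidyl transferase centre, had 1137 and 1095 CPM in shSet, against 1359 and 1600 CPM in shNC (-0.39, SE 0.146, adjusted p = 0.158). Rpl3, also near that centre, had 699 and 637 CPM in shSet, against 757 and 978 CPM in shNC (-0.36, SE 0.155, adjusted p = 0.216). In all 5 of these members the shSet libraries lay below both shNC libraries, and shNC 2 was the highest.

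At the lower end of the small subunit shNC 2 was again the highest in each member named here. Rps21 (chromosome 2, 180257377 to 180258445, plus strand) had 353 and 324 CPM in shSet, against 372 and 592 CPM in shNC, so shNC 1 was much nearer to the shSet libraries than to shNC 2 (log2 fold change -0.49, SE 0.195, adjusted p = 0.184). Rps15a had 452 and 410 CPM in shSet, against 443 and 648 CPM in shNC (-0.32, adjusted p = 0.329), and its groups overlapped.

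Rps28 had 350 and 321 CPM in shSet, against 379 and 467 CPM in shNC, a log2 fold change of -0.32. Rps10, a protein at the mRNA entry side that is modified when ribosomes collide, had 758 and 693 CPM in shSet, against 831 and 983 CPM in shNC, a log2 fold change of -0.31. Neither passed the test.

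Apart from Rps12l1, the upper end held smaller fold changes, none of which passed the test. Rpl39 (chromosome X, 37082520 to 37085402, minus strand), a small protein that lines the exit tunnel, had 299.6 and 304 CPM in shSet, against 202 and 297 CPM in shNC. The shNC libraries differed from each other far more than the shSet libraries did, and the log2 fold change was 0.29 (SE 0.173, adjusted p = 0.372). Rps2 (chromosome 17, 24718116 to 24721929, plus strand) had 5526 and 5564 CPM in shSet, against 4524 and 4989 CPM in shNC (0.24, SE 0.164, adjusted p = 0.451).

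Rpl27 had 944 and 880 CPM in shSet, against 829 and 744 CPM in shNC (log2 fold change 0.23, SE 0.141, adjusted p = 0.393). Rplp1 had 1471 and 1359 CPM in shSet, against 1347 and 1098 CPM in shNC (0.22, SE 0.158, adjusted p = 0.462). Unlike the members at the lower end, both of these were lowest in shNC 2.

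Smaller values above 0 belonged to Rpl41 (0.14) and Rpl23a (0.13), the second a protein at the tunnel exit where nascent chains meet the signal recognition particle. In the small subunit they belonged to Rps27a (0.10), which is made as a fusion with ubiquitin, Rps23 (0.09), which sits at the decoding centre, and Rps25 (0.07), known for its part in internal initiation. Rps25 had 500.3 and 410 CPM in shSet, against 344 and 535 CPM in shNC. Relative to the mean, its shNC spread was the widest within a group among these 5 members. Leaving out 1 library gave Rps25 a log2 fold change of -0.21 to 0.40.

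Rpl5 and Rpl11, which together with a small ribosomal RNA bind Mdm2 and so stabilize p53, had log2 fold changes of -0.26 (adjusted p = 0.39) and -0.22 (adjusted p = 0.366). Rps6, the substrate of the S6 kinases, had -0.05, and Rps19, the gene most often mutated in human Diamond-Blackfan anaemia, -0.13. Rpl11 and Rps19 lay below both shNC libraries in shSet, and Rpl5 and Rps6 overlapped. These 4 were chosen for their roles, outside the naming rule and with their values seen.

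The highest fitted value belonged to a pseudogene-annotated row. Rps12l1 (chromosome 7, 56014016 to 56014414, plus strand) had 60.6 and 66.3 expected counts in shSet, against 30.0 and 0 in shNC, or 3.11 and 3.37 CPM against 1.53 and 0 CPM. The log2 fold change was 2.08 (SE 0.693, adjusted p = 0.118), with 1 shNC library at 0. Without shNC 2 the log2 fold change was 1.08 (adjusted p = 0.095), and DESeq2 gave an adjusted p of 0.783. It was called higher without shSet 1 (log2 fold change 2.14), without shSet 2 (2.02) and without shNC 1 (8.999). The value without shNC 1 depends on the prior count, since the only shNC library in that fit is at 0. With the replicate number as a block Rps12l1 was called higher as well (2.20, adjusted p = 0.0158).

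Its name marks it as a relative of Rps12, a small subunit gene that had 958 and 911 CPM in shSet, against 971 and 899 CPM in shNC. Rps12l1 held 0.745% and 0.855% of the TPM of Rps12 in shSet, against 0.361% and 0% in shNC. Its expected counts were fractional wherever they were above 0, as they are where the counting program divides a read between similar features, so the value of Rps12l1 is uncertain. Over the 89 members 32 had whole counts in all 4 libraries and 45 in none (within 0.005 of an integer). Among the 27 tested members with whole counts throughout, the median log2 fold change was -0.13. The rows marked -ps that are named for a member (297, of which 108 had any count) held 0.113% and 0.102% of counts in shSet, against 0.108% and 0.128% in shNC.

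The members' values followed single libraries as much as the groups. Of 83 tested members, 55 (66.3%) were highest in shNC 2, 17 in shSet 1, 6 in shSet 2 and 5 in shNC 1, while 33.9% of all genes tested were highest in shNC 2. At the other end, 52 (62.7%) were lowest in shSet 2, against 28.4% of all genes. The median deviation of a member from its own mean over the 4 libraries, in log2 normalised CPM, was 0.01 in shSet 1 and -0.11 in shSet 2, against -0.03 in shNC 1 and 0.13 in shNC 2. Over all genes tested the same medians were between 9e-04 and 0.0073.

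**Figure D3:**
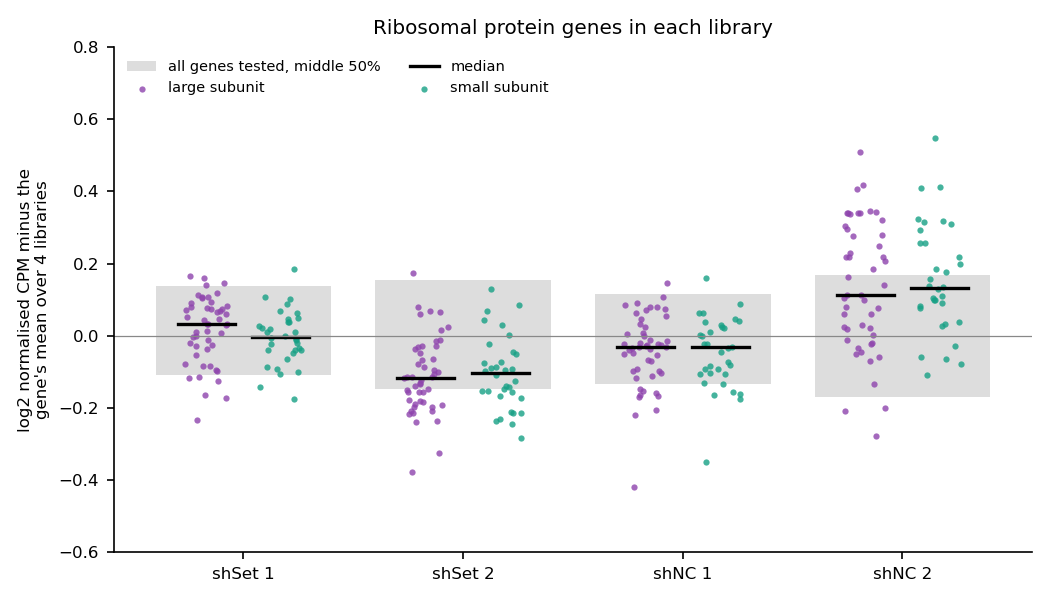
Deviation of each tested member from its own mean over the 4 libraries, in log2 normalised CPM, by library and subunit; points are members, black lines medians, and the grey band the middle 50% of all genes tested. Members sit highest in shNC 2 (median 0.13) and lowest in shSet 2 (median -0.11); Rps12l1 is counted in the medians and not drawn.

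The split inside the shNC group was thus larger than that between shSet 1 and shNC 1. The 2 subunits shared it, with medians of 0.11 (large) and 0.13 (small) in shNC 2 and of -0.12 and -0.10 in shSet 2. A chi-square of counts between the libraries of a group averaged 80.4 per member in shSet and 312 per member in shNC, against 23.6 and 26.0 per gene over all genes with enough counts. Members are highly expressed, and this measure grows with the count, so the 2 kinds of genes are not compared by it.

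Other properties moved with shNC 2. Length minus effective length, which tracks the mean fragment length, was 264 and 262 bases in shSet, against 260 and 246 bases in shNC, read from the long gene Gnai3. Mitochondrially encoded genes held 2.15% and 3.36% of counts in shSet, against 2.29% and 1.67% in shNC, so shNC 2 had the lowest share and shSet 2 the highest. The part of these properties in the members' values was not tested.

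Leaving out a library changed what was called. Without shNC 1 the test called 10 of 84 members lower (among them Rps21, Rpl36, Rpl22l1, Rpl29, Rps15a, Rps24, Rpl3, Rpl26 and Rpl37), with 5.24% of all genes called lower, and 1 higher, Rps12l1 (7.4% of all genes). Without shNC 2 it called 0 lower and 1 higher, Rpl39 (log2 fold change 0.57, adjusted p = 0.044; without shNC 1 it was 0.05, adjusted p = 0.89), with 4.61% of all genes called higher and 2.17% lower. Without shSet 1 the test called 1 lower, Rpl36 (3.42% of all genes), and 1 higher, Rps12l1 (4.44%). Without shSet 2 it called 0 lower (1.49% of all genes) and 1 higher, Rps12l1 (4.12%). With the replicate number as a block it called 0 lower (2.17% of all genes) and 1 higher, again Rps12l1 (4.56%). The lone library that a group keeps in such a fit is assumed to vary like the other group.

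The median moved in step. Over the tested large subunit members it ran from -0.18 without shSet 1 to 0.01 without shNC 2, and over the small subunit from -0.20 without shNC 1 to -0.0048 without shNC 2. The small lean below 0 in shSet therefore rested on shNC 2 and shSet 2: without shNC 2 the median over all 83 members was 0.0040, and without shSet 2 over 84 it was -0.03.

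**Figure D4:**
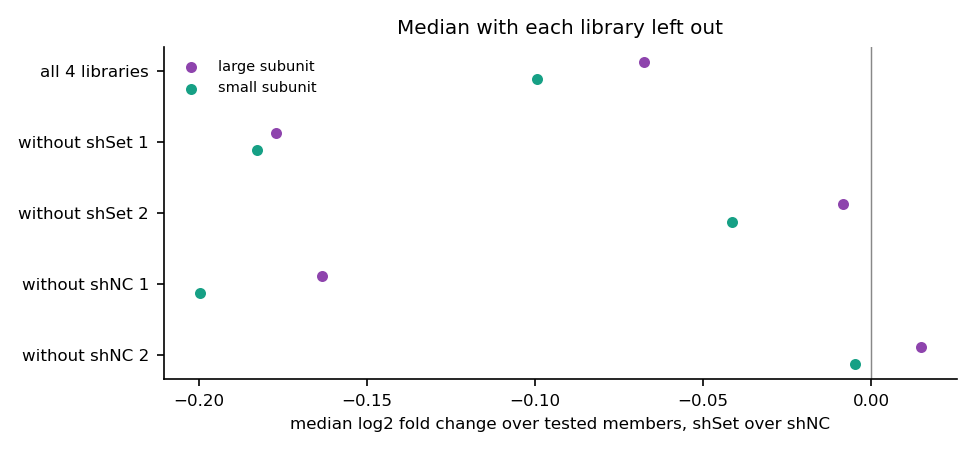
Median log2 fold change, shSet over shNC, over the tested members of the large (purple) and small (green) subunit, with all 4 libraries and with each library left out. The medians lie near -0.2 without shSet 1 or shNC 1 and near 0 without shNC 2.

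Effective length also entered the levels of a few members. It differed at least 1.3-fold between libraries in 4 members, Rpl39l, Rps3, Rpl13a and Rps15a. Rps3, a small subunit protein at the mRNA entry, had 1842 and 1633 CPM in shSet, against 1736 and 1728 CPM in shNC, yet 1627 and 1531 TPM in shSet, against 1889 and 2265 TPM in shNC. Its effective length was 1387 and 1311 bases in shSet, against 1159 and 979 bases in shNC, so the groups that overlapped in CPM did not overlap in TPM.

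Rps15a had effective lengths of 291 and 306 bases in shSet, against 288 and 226 in shNC, with 1902 and 1646 TPM in shSet against 1942 and 3681 TPM in shNC, so that shNC 2 stood far above the others. In Rpl13a the length ran the other way, at 269 and 252 bases in shSet against 269 and 350 in shNC, with 6775 and 7425 TPM in shSet against 7199 and 5009 TPM in shNC. Over the 83 members the log2 fold change had a Pearson r of -0.04 with log2 mean effective length and -0.30 with log2 mean TPM. The Spearman rho was 0.14 and 0.13, of the opposite sign, across genes that share the same 4 libraries. Rps12l1 was included, with the highest fold change (2.08) and the lowest mean TPM (17.4) of the tested members.

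Small nucleolar RNA genes lay inside 30 of the 80 protein-coding tested members on the same strand (37.5%), 58 in all, against 198 of 11538 protein-coding genes tested (1.72%). Rpl4 held 5, and Rpl13a held 4, namely Snord32a, Snord33, Snord34 and Snord35a, which are known for a part in the response to lipid stress. The median log2 fold change was -0.06 over the 30 hosts and -0.11 over the other 50 members, and this was not tested.

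Genes of ribosome components that the symbol rule leaves out numbered 5 (Fau, Rack1, Rpl36al and Rps27rt among them). Of these 0 were called (5.96% of all genes), with a median log2 fold change of -0.14. Rack1, a scaffold on the small subunit, had 2854 and 2747 CPM in shSet, against 2695 and 3114 CPM in shNC. Fau, made as a fusion with a ubiquitin-like protein, had 555 and 535 CPM in shSet, against 554 and 749 CPM in shNC. In both genes the groups overlapped and shNC 2 was highest, and without shNC 2 the fold change of Rack1 was 0.05 against -0.04 with all libraries.

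Of 20 elongation factors and other genes with TOP mRNAs 1 was higher (4.2% of all genes) and 0 lower (1.76% of all genes). The median was -0.11. The called gene was Vim, an intermediate filament protein whose mRNA is listed among those with a TOP motif, at 468 and 413 CPM in shSet, against 189 and 222 CPM in shNC (log2 fold change 1.12, SE 0.141, adjusted p = 0.00211; 1.11 and 0.126 without a filter on low counts). The translocation factor Eef2 had 6585 and 6084 CPM in shSet, against 5588 and 5767 CPM in shNC (0.17, adjusted p = 0.61), and Eef1a1, which brings aminoacyl-tRNA, had a log2 fold change of -0.11. Of 37 initiation factor genes 0 were called (median -0.10; both shSet libraries below both shNC libraries in 15 and above both in 3, against 26.5% and 25.4% of all genes), and of 15 RNA polymerase I genes 0 (median -0.09).

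Ribosome assembly genes held the single lower call of the lists of the translation machinery. Of 68 tested, 0 were higher (4.2% of all genes) and 1 lower (1.76% of all genes). The median was -0.13. Both shSet libraries were below both shNC libraries in 31 (26.5% of all genes) and above both in 3 (25.4% of all genes). Rrs1, an assembly factor of the large subunit, had 63.2 and 68.5 CPM in shSet, against 103 and 94.2 CPM in shNC (log2 fold change -0.57, SE 0.139, adjusted p = 0.0436). The call was lost without shSet 1 (-0.51, adjusted p = 0.122), without shNC 1 (-0.49, adjusted p = 0.0722) and with the replicate number as a block (-0.57, adjusted p = 0.0546). It was also lost in limma on log2(TPM + 1) (-0.62, adjusted p = 0.0565) and on log2(TPM + 0.1) (-0.63, adjusted p = 0.0588), and without a filter on low counts (-0.58, adjusted p = 0.231).

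Of 22 regulators of ribosome production 1 was higher (4.2% of all genes) and 0 lower (1.76% of all genes). Their median was -0.08. Deptor, an inhibitor bound to mTOR, had 45.5 and 42.3 CPM in shSet, against 12.4 and 23.4 CPM in shNC (log2 fold change 1.31, SE 0.249, adjusted p = 0.0146). The call was lost in limma on log2(TPM + 1) (1.07, adjusted p = 0.0913) and on log2(TPM + 0.1) (1.32, adjusted p = 0.104), and without a filter on low counts (1.303, adjusted p = 0.265). Myc, which drives ribosome production genes, had 218 and 218 CPM in shSet, against 275 and 256 CPM in shNC (-0.27, adjusted p = 0.26). Mtor had 30.5 and 25.6 CPM in shSet, against 34.8 and 35.1 CPM in shNC (adjusted p = 0.31), and Larp1 had a log2 fold change of -0.03. The 78 mitochondrial ribosomal protein genes, which serve a separate ribosome, had 0 calls and a median of -0.04.

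**Figure D5:**
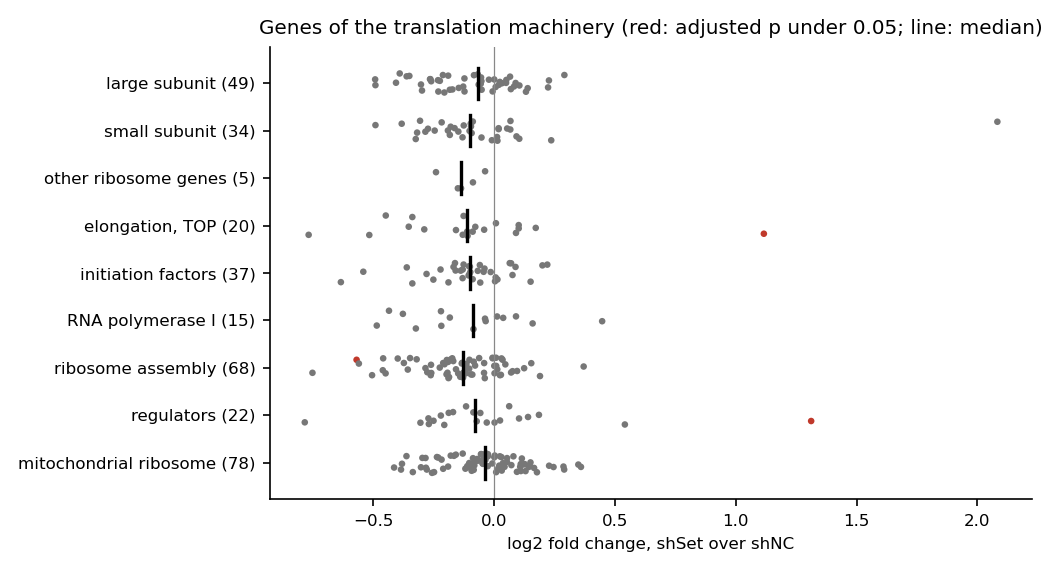
Log2 fold change, shSet over shNC, of the tested genes of each list (number in brackets), with black lines at the medians and called genes in red. The medians lie between -0.14 and -0.04, and the red points are Vim and Deptor on the right and Rrs1 on the left.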

How the data were processed

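Total RNA of 2 shSet and 2 shNC libraries was extracted with an RNeasy Plus Mini kit, and libraries were prepared with a directional NEBNext Ultra kit, per the labels' protocols. The submitters' processing notes name STAR, RSEM, FastQC and DESeq2, and GRCm38 and mm10 as builds, without versions or roles. For the annotation release and the strand setting nothing is given in the sources used here. The deposited expected counts are, per the file headers, estimates per gene that divide reads shared by similar features. The deposited TPM values are counts divided by effective length and scaled to 1e+06 per library. FPKM, also deposited, was left out.

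Expected counts were rounded, and library sizes were sums over all 115821 rows. CPM values printed are the unrounded counts over those sums, unless called normalised, when TMM factors were applied. The 54838 genes with symbols were fitted in edgeR 4.0.16 under R 4.3.3 (TMM, filterByExpr, quasi-likelihood F-test, group as the only term). The filter left 12821 genes, and degrees of freedom were 2 (residual) and 7.52 (prior). Benjamini-Hochberg adjustment ran over all genes tested, with a threshold of 0.05, and each sentence that prints an adjusted p without a tool refers to this test. SEs came from the F statistic and intervals are 95%. Gene types, coordinates and small nucleolar RNA genes came from GENCODE M21, and sequences from RefSeq. The fit was tested on simulated data.

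The members, gene lists and the rule for naming genes were chosen with earlier results of these data known. The rule took Setdb1, called members, the 5 lowest and 5 highest fold changes and the 5 highest TPM means of each subunit, paralogues, members not tested or with a 0, called genes of the other lists and 8 genes fixed by name; a few genes that it names are not reported here one by one. Alternatives were DESeq2 1.42.0 and its size factors, limma 3.58.1 on log2(TPM + 1) and log2(TPM + 0.1), other filters, other scalings, an offset for effective length, leaving out each library and replicate blocks.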

Additional observations from a re-analysis of the deposited data

How the results depend on the processing

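The subunit medians stayed below 0 and the members called stayed at 0 under DESeq2's size factors, scaling without the members, a filter of 1 CPM in 2 libraries, no filter, limma on TPM, the length offset, adding -ps rows and leaving out mitochondrial genes. The ratio of summed CPM stayed below 0 under the other scalings, adding -ps rows and leaving out mitochondrial genes, and that of summed TPM under the last 2 of these. Limma on log2(TPM + 1) gave -0.117 and -0.185 for the large and small subunit, with -0.0493 over all genes, and the length offset -0.1087 and -0.1313. DESeq2's Wald test called 1 member lower. Leaving out 1 library gave 1 higher member each time and 0 to 10 lower members, a large subunit median of -0.177 to 0.0147 and a small subunit median of -0.1997 to -0.0048. Over the lists of the translation machinery (2 higher, 1 lower, median -0.0858), leaving out 1 library gave 1 to 8 lower and a median of -0.0959 to -0.0722. Without a filter edgeR called 0 genes of all (3378 had an unadjusted p under 0.05), so 0 list genes were higher or lower (median -0.0951). DESeq2 called 3 list genes higher and 2 lower (median -0.0894), with 4.53% of all genes called higher and 2.46% lower. Its size factors and the 1 CPM filter both gave a median of -0.0893. Limma on log2(TPM + 1) and on log2(TPM + 0.1) called 1 higher and 0 lower, with medians of -0.1439 and -0.1484. The length offset called 3 higher and 1 lower, with a median of -0.0961. Genes and position-named loci in one fit, added after the data had been seen, gave a median of -0.077. The cause of these shifts was not tested. For the single genes reported, 723 values under alternatives kept their direction and side of the threshold, 20 passed it only under the alternative, 11 lost it, Setdb1 among them without a filter (adjusted p = 0.0877), and 20 changed sign, all of genes that were not called in either fit. Leaving out 1 library gave -0.0316 to 0.1662 for Rpl13a, -0.2059 to 0.4003 for Rps25, -0.2224 to 0.0387 for Rps27, -0.4121 to 0.004 for Rps18, -0.0415 to 0.0227 for Rps27l and -0.0167 to 0.1985 for Rpl7. It gave -0.1429 to 0.0349 for Rpl10, -0.2904 to 0.0509 for Rpl22, -0.0484 to 0.1598 for Rps4x, -0.3123 to 0.2058 for Larp1 and -0.1258 to 0.0526 for Rack1. In limma on log2(TPM + 1) and log2(TPM + 0.1) Rpl7l1 was at -0.0842 and -0.0851 and Rpl7 at -0.0075 in both, and with the length offset Larp1 was at 0.0406. For all genes, edgeR called 764, DESeq2 896 and limma on log2(TPM + 1) 334.

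Libraries of the same number are tied by that number only in the labels used here, and a shared batch was not tested. Their deviations correlated at -0.2228 over 12821 genes and at -0.3657 over the 83 members. The replicate block called 862 genes and 1 member higher (Rps12l1). Crossing the numbers, tried after the data had been seen, called 2339 of 12821 genes tested. Of 83 members 1 was then higher and 6 lower, a smaller share than over all genes. Of the list genes 4 were higher and 14 lower. The calls over all genes are not split by direction for this fit, so these counts by direction have no background here. With 2 libraries a group and a median SE of 0.147 on the log2 scale, changes well below 1.5-fold in a single member were not detectable.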
